A study of Mus musculus with 12 samples.

Results

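The genes described here are 44 mouse genes of the endoplasmic reticulum (ER) stress response, the amino acid response and the chaperone systems. They were chosen by symbol, and all 44 were found among the 55401 genes of the deposited table. Their levels were measured by RNA sequencing of total RNA from bone marrow-derived macrophages (BMDMs), which are macrophages grown from marrow precursors with the growth factor M-CSF, here at 20 nM for 7 days. Every culture came from C57BL/6J mice lacking Irx3 (Irx3-/-), a gene for a homeobox transcription factor, and received 100 ng/ml of the bacterial product lipopolysaccharide (LPS) for 4 h before collection. The cells carried an adeno-associated virus (AAV) construct for IRX3_S389A, IRX3_S361A, IRX3_WT or GFP, with 3 libraries per construct. IRX3_WT is the unchanged protein, the other IRX3 constructs are named for serine-to-alanine substitutions, and GFP is the control protein. Every group therefore shared the deletion, an AAV infection and LPS, and none of the 12 libraries was from cells without LPS. The comparisons address what IRX3 does to these genes in cells without their own Irx3, and whether either substituted protein differs from IRX3_WT.

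Proteins that enter the secretory pathway fold in the ER with the help of chaperones and disulfide isomerases. When unfolded proteins accumulate there, the sensors IRE1 (gene Ern1), ATF6 and PERK (gene Eif2ak3) start the unfolded protein response, which raises ER chaperones and ER-associated degradation through XBP1 and ATF6. PERK also phosphorylates the translation factor eIF2-alpha, as do kinases that sense amino acid shortage, double-stranded RNA or heme lack, and this integrated stress response favours translation of ATF4, a factor that turns on amino acid synthesis and stress genes. In the cytosol the factor HSF1 controls the heat shock chaperones. Macrophages exposed to LPS make and secrete large amounts of cytokines, and their ER machinery serves that output.

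The deposited totals ran from 17325311 to 19796325 normalized counts per library, where a normalized count is a read count divided by 1 size factor per library, and 18226 to 18750 genes were above 0. Irx3 had 194, 203 and 165 normalized counts in the IRX3_S389A libraries, 324, 364 and 358 in IRX3_S361A, 165, 170.3 and 196 in IRX3_WT and 0, 0 and 0 in GFP. Irx3 was at 0 in the control libraries, where a count of 0 allows up to 2.67 to 2.78 normalized counts (3 reads, for counting error only), and every IRX3_S361A library held more of it than any other library, so IRX3_S361A differs from the other constructs in its level as well as its substitution, and their parts cannot be told apart. All 7 macrophage markers were above 10 normalized counts in every library, with summed levels of 325810 to 341399 in IRX3_S389A, 353394 to 361220 in IRX3_S361A, 315531 to 318854 in IRX3_WT and 305940 to 313694 in GFP. The 6 neutrophil markers summed to 30.5 to 49.3 in IRX3_S389A, 27.3 to 48.7 in IRX3_S361A, 41.0 to 63.3 in IRX3_WT and 23.2 to 35.3 in GFP, with Ly6g and Elane at 0 in every library. Stromal markers summed to 58.4 to 77.2 in IRX3_S389A, 59.3 to 82.5 in IRX3_S361A, 47.8 to 53.2 in IRX3_WT and 41.4 to 62.3 in GFP. Over the 12 libraries, dendritic cell markers summed to 115 to 176, lymphocyte markers to 0.984 to 10.2, and erythroid and mast cell markers to 1.00 to 11.1. The part of these markers in the results was not tested. In bulk RNA, fewer cells of a type and less RNA per cell cannot be told apart. The labels do not say whether the 3 libraries of a group came from separate mice or cultures, so p-values measure only the spread between these libraries, which may be technical.

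Many of the 44 genes are known targets of factors that bind short DNA motifs near the transcription start, and promoter sequences show which members carry such letters. RefSeq promoters (build GRCm38.p6, from 250 bases before to 50 bases after the start) matched 38 of the 44 members, and those of Atf6, Hsf1, Hsp90aa1, Hsp90ab1, Hyou1 and Manf were not in the table used. Both strands of 32851 promoters of 27025 genes were searched. The ER stress element (ERSE, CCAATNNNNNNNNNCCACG), bound by ATF6 with NF-Y, was in 0.12% of all promoters and in those of 8 members, which were Hspa5, Hsp90b1, Calr, Canx, Pdia6, Dnajc3, Creld2 and Syvn1. The related ERSE-II (ATTGGNCCACG) was in 0.04% of all promoters and in those of Dnajb11 and Herpud1. The C/EBP-ATF response element (CARE, TGATGNAA), the site of ATF4 dimers, was in 3.97% of all promoters and in those of Asns, Trib3, Chac1 and Herpud1. A heat shock element (HSE, GAANNTTCNNGAA) was in 0.60% of all promoters and in those of Hsph1, Hspd1 and Hspe1, of which the last pair share 1 stretch of DNA between them. The unfolded protein response element (UPRE, TGACGTGG) was in 0.68% of all promoters and in no member's. In the printed promoters no match overlaps another, and a match is a description of sequence, not of binding.

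Promoters of some of the members that hold a match are printed 5' to 3' on the gene's strand, with the matched letters on either strand in capitals. Other members with clear differences below, such as Ppp1r15a, Pdia4 and Hspa1b, held no match in their promoters and are not printed. Hsp90b1 (chr10:86705395-86705694, minus strand) holds a pair of ERSE matches, and Calr (chr8:84846882-84847181, minus strand) holds 1. Herpud1 (chr8:94386179-94386478, plus strand) holds a CARE match and then an ERSE-II match, while Asns (chr6:7693160-7693459, minus strand), Chac1 (chr2:119350992-119351291, plus strand) and Trib3 (chr2:152344011-152344310, minus strand) hold a CARE match each. In Asns the match lies at positions -23 to -16 from the start, and in Chac1 at -193 to -186. Hsph1 (chr5:149636266-149636565, minus strand), shown for the HSE, has it at 15 to 27, past the start.
Hsp90b1: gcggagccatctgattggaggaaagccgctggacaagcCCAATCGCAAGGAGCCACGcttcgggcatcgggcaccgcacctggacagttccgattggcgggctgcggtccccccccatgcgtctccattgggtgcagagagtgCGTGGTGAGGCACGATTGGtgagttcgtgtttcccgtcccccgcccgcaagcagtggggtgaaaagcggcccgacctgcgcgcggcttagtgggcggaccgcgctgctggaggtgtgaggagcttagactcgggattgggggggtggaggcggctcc
Calr: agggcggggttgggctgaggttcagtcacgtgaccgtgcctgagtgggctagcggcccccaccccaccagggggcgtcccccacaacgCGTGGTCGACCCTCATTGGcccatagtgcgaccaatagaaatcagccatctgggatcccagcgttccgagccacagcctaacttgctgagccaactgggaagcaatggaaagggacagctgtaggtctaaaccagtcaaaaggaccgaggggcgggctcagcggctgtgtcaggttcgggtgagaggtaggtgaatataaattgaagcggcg
Herpud1: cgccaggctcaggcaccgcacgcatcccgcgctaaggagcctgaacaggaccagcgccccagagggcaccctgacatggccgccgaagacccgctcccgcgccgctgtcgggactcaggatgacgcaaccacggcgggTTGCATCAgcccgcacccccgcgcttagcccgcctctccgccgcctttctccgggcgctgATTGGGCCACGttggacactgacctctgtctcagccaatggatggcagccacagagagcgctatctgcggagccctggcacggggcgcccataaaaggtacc
Asns: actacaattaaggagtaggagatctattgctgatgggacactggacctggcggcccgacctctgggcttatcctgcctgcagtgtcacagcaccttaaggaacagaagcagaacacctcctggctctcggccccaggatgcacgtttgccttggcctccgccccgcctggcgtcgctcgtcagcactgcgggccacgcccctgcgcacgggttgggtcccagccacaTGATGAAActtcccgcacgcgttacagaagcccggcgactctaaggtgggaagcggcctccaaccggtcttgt
Chac1: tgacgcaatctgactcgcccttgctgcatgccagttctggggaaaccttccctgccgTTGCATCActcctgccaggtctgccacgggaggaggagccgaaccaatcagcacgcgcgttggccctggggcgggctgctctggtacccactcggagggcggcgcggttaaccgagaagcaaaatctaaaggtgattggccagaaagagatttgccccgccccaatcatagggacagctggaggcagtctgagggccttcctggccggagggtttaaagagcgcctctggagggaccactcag
Trib3: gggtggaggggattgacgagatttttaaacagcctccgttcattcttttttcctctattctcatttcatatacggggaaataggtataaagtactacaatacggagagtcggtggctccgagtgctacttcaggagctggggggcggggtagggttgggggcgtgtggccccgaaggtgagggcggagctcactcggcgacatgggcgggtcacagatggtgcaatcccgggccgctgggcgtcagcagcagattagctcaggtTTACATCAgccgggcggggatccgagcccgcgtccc
Hsph1: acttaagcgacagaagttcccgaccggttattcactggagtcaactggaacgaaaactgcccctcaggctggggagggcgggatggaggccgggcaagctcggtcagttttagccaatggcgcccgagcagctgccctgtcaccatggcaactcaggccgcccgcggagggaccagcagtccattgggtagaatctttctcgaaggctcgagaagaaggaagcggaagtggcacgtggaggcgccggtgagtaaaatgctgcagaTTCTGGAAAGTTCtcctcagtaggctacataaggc

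All 44 members passed the filter on low values (3 or more libraries with 10 or more normalized counts), and 38 differed among the 4 groups in limma's joint test at a Benjamini-Hochberg adjusted p under 0.05, where 44.2% of the 13369 genes tested did. Between IRX3_WT and GFP, 30 members differed, 13 higher and 17 lower with IRX3_WT, against a background of 39.6% of all genes tested (21.0% higher and 18.6% lower). IRX3_S361A differed from IRX3_WT in 24 members, 13 higher and 11 lower, where 15.5% of all genes did (6.43% higher and 9.07% lower). IRX3_S389A differed from IRX3_WT in 27 members, 16 higher and 11 lower, where 15.3% of all genes did (8.21% higher and 7.08% lower). Against GFP, IRX3_S361A differed in 19 members, 7 higher and 12 lower (background 25.9%, with 14.9% higher and 10.9% lower), and IRX3_S389A in 21 members, 8 higher and 13 lower (background 35.0%, with 18.8% higher and 16.2% lower). IRX3_S389A and IRX3_S361A differed from each other in 7 members, 2 higher and 5 lower with IRX3_S389A, where 10.2% of all genes did (7.00% higher and 3.16% lower). The comparisons share the IRX3_WT or the GFP libraries, so their results are not independent of each other. Members' median log2 differences stayed near those of all genes, at -0.043 against -0.006 for IRX3_WT against GFP, with members of different roles moving in opposite directions.

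The size factors set how libraries are scaled, and the totals after that scaling were smaller in GFP than in the other groups. With each library scaled to the same total instead, the median log2 difference of all genes moved to -0.18 for IRX3_WT against GFP, -0.17 for IRX3_S389A against GFP, -0.11 for IRX3_S361A against GFP, 0.070 for IRX3_S361A against IRX3_WT, 0.008 for IRX3_S389A against IRX3_WT and -0.058 for IRX3_S389A against IRX3_S361A. The split of members under equal totals became 3 higher and 26 lower for IRX3_WT against GFP, 3 higher and 33 lower for IRX3_S389A against GFP, 3 higher and 27 lower for IRX3_S361A against GFP, and 18 higher and 8 lower for IRX3_S361A against IRX3_WT. All genes tested shifted as well. In the same order, their splits were 1395 higher and 5519 lower, 1334 and 5397, 1047 and 3226, and 1805 and 754. Of the members called, those still called whichever single library was left out numbered 23 of 30 for IRX3_WT against GFP, 11 of 24 for IRX3_S361A against IRX3_WT and 18 of 27 for IRX3_S389A against IRX3_WT. They numbered 9 of 19 for IRX3_S361A against GFP, 14 of 21 for IRX3_S389A against GFP and 4 of 7 for IRX3_S389A against IRX3_S361A. Where a called difference of a member is printed below, its loss under equal totals or without a single library is given in the same paragraph.

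**Figure D1:**
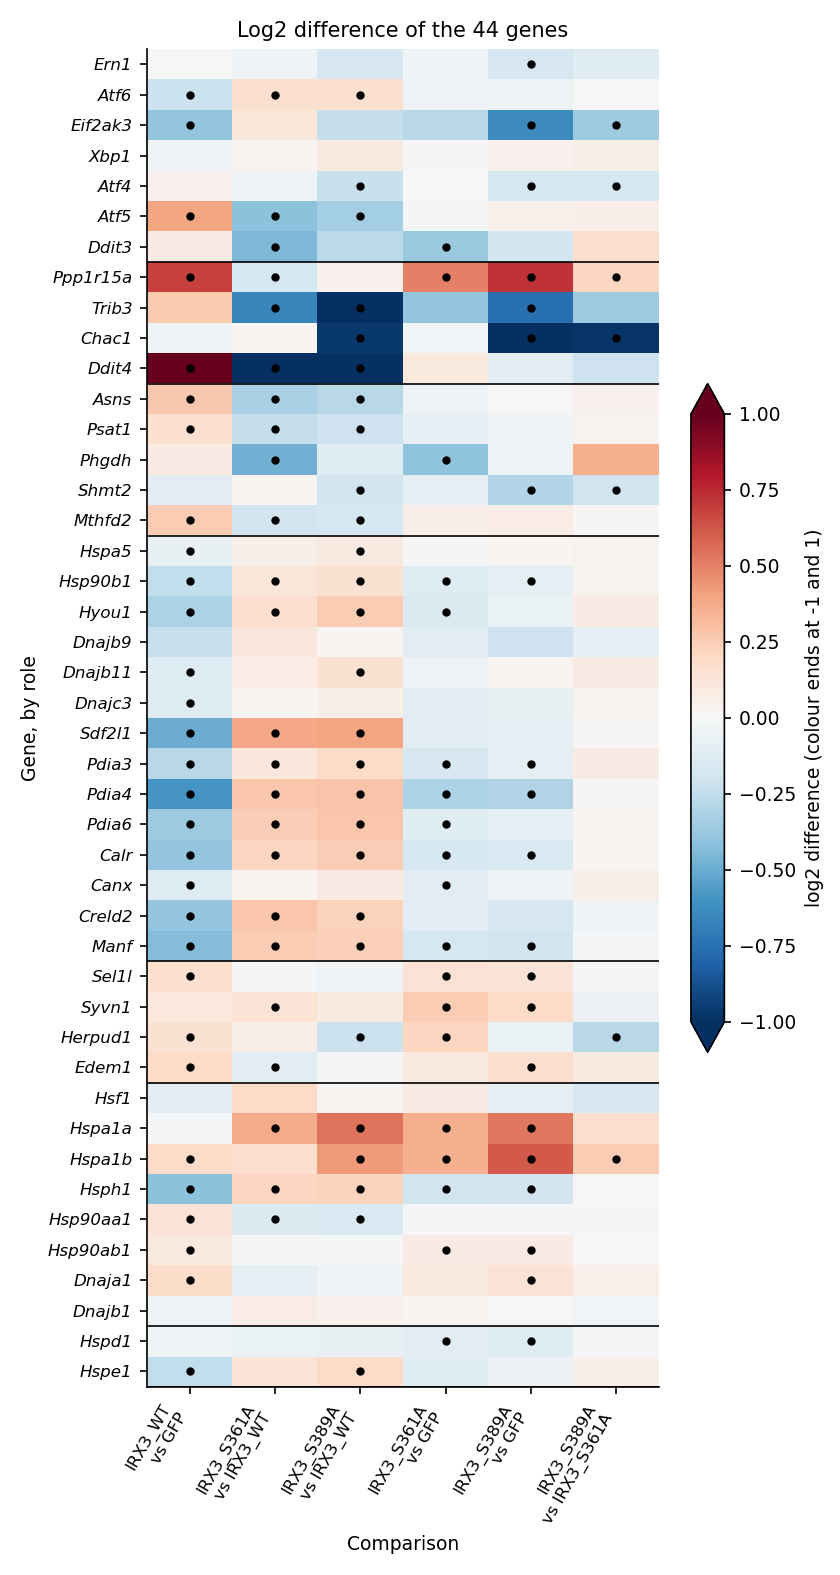
Log2 difference of each of the 44 genes (rows, ordered by role with lines between roles) in each of the 6 comparisons (columns), on a colour scale that ends at -1 and 1, with a dot where the limma adjusted p was under 0.05. The block of ER chaperones is blue for IRX3_WT against GFP, with 13 of 14 genes lower, and red for both substituted constructs against IRX3_WT, with 11 higher for IRX3_S389A and 9 higher for IRX3_S361A.

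The ER chaperones and folding enzymes moved together. With IRX3_WT, 13 of the 14 were lower than with GFP, where 18.6% of all genes tested were, with a median log2 difference of -0.30. Levels were higher with both substituted proteins than with IRX3_WT, in 11 of 14 genes for IRX3_S389A (median 0.21) and in 9 of 14 for IRX3_S361A (median 0.14). Over all genes tested, 8.21% were higher for IRX3_S389A and 6.43% for IRX3_S361A. No chaperone was lower than with IRX3_WT by limma, edgeR or DESeq2 or at an unadjusted p under 0.05. Over all genes tested, 16.2% were below GFP for IRX3_S389A and 10.9% for IRX3_S361A. The chaperones were below GFP in 5 of 14 genes for IRX3_S389A (2 to 5 when 1 library was left out) and in 8 of 14 for IRX3_S361A (5 to 7). That count depended on the scaling. Under equal totals it was 14 for IRX3_S389A and 13 for IRX3_S361A. Limma called no chaperone between IRX3_S389A and IRX3_S361A, where 10.2% of all genes tested were called. Of the 14, 1 passed an unadjusted p under 0.05 there, and neither edgeR nor DESeq2 called any. With so few genes at that background, the lack of calls does not show that the substituted constructs were alike. The IRX3_WT mean was the lowest of the 4 in all 14 genes, and in 12 of 14 both substituted constructs lay between IRX3_WT and GFP. How often these orders of means occurred over all genes tested was not counted. The number lower with IRX3_WT than with GFP was 10 to 14 when 1 library was left out, and 12 to 14 under the other settings, equal totals included. The counts of genes higher than with IRX3_WT were 7 to 11 for IRX3_S389A and 7 to 9 for IRX3_S361A when 1 library was left out.

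**Figure D2:**
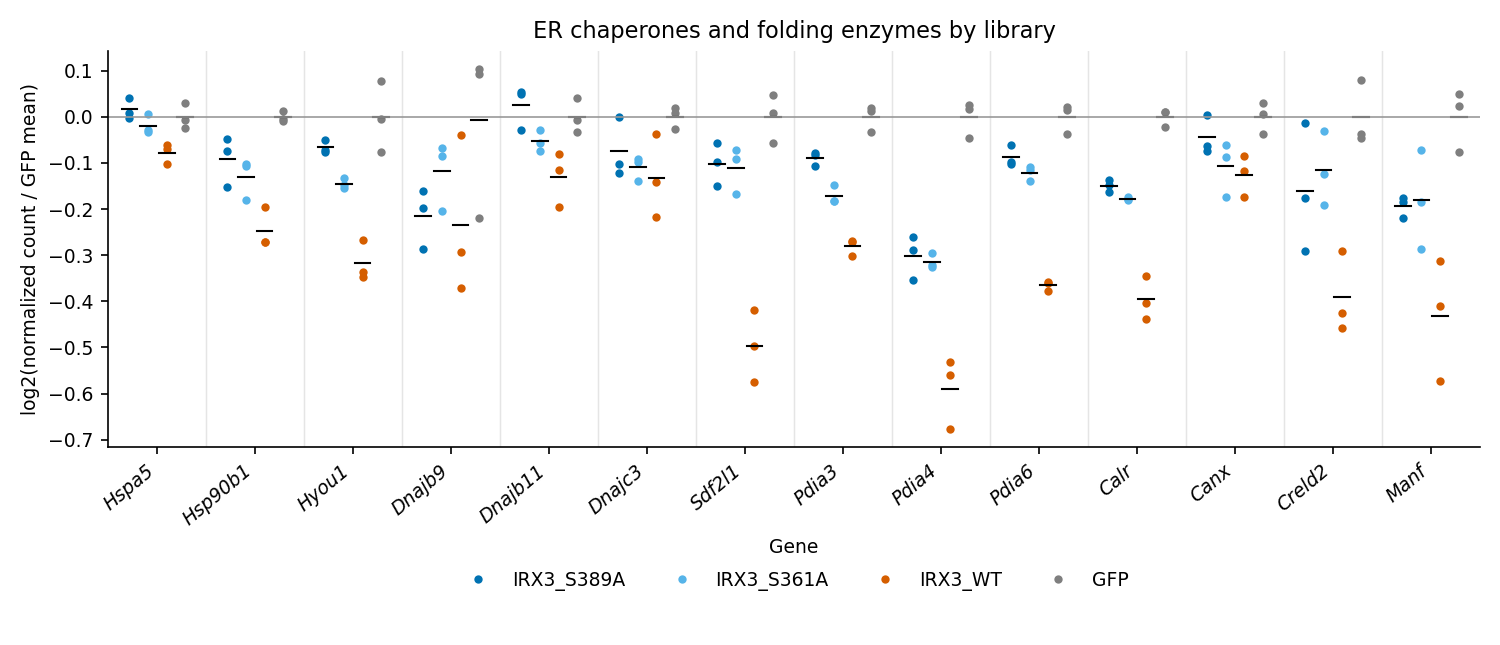
Log2 ratio of the normalized count in each library to the GFP mean (vertical axis) for the 14 ER chaperones and folding enzymes, with IRX3_S389A, IRX3_S361A, IRX3_WT and GFP from left to right for each gene, a point per library and a bar at the group mean. The 3 IRX3_WT points lie below the 9 other points in genes such as Pdia4, Sdf2l1, Calr and Pdia6, where the points of both substituted constructs overlap or lie close to each other.

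Among the disulfide isomerases, which form and rearrange disulfide bonds in folding proteins, Pdia4 had 1182, 1128 and 1205 normalized counts in the IRX3_S389A libraries, 1175, 1151 and 1154 in IRX3_S361A, 903, 998 and 979 in IRX3_WT and 1399, 1469.7 and 1460.4 in GFP. Its IRX3_WT libraries were all below the others and its GFP libraries all above, with the substituted constructs between them. Its log2 difference was -0.59 (SE 0.053, limma adjusted p = 8.27e-12) for IRX3_WT against GFP, 0.27 (SE 0.053, limma adjusted p = 0.000224) for IRX3_S361A against IRX3_WT and 0.29 (SE 0.053, limma adjusted p = 0.000122) for IRX3_S389A against IRX3_WT. Pdia6 had 4485, 4602 and 4471 normalized counts in the IRX3_S389A libraries, 4426, 4448 and 4357 in IRX3_S361A, 3739, 3696 and 3746 in IRX3_WT and 4679, 4871 and 4844 in GFP. The groups did not overlap, with IRX3_WT lowest, then IRX3_S361A, IRX3_S389A and GFP. IRX3_WT differed from GFP with a log2 difference of -0.36 (SE 0.037, limma adjusted p = 1.8e-10). Pdia3, which works on glycoproteins with calreticulin and calnexin, had 11020.4, 10798 and 10989.7 normalized counts in the IRX3_S389A libraries, 10503, 10249 and 10250.0 in IRX3_S361A, 9647, 9639 and 9442 in IRX3_WT and 11373, 11793 and 11734 in GFP. IRX3_WT was lowest in every library and GFP highest, with a log2 difference of -0.28 (SE 0.032, limma adjusted p = 3.63e-09). IRX3_S389A exceeded IRX3_WT with a log2 difference of 0.19 (SE 0.032, limma adjusted p = 3.75e-05) and IRX3_S361A exceeded it by 0.11 (SE 0.032, limma adjusted p = 0.0158). The Pdia3 call between IRX3_S361A and IRX3_WT ended without IRX3_S361A replicate 1 or IRX3_WT replicate 3 (adjusted p up to 0.0697).

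Calr encodes calreticulin, a lectin chaperone that binds newly made glycoproteins and calcium, and per kilobase of exon its mean level in GFP libraries was exceeded among the members by that of Hsp90ab1 alone. It had 22699.9, 22944 and 23114 normalized counts in the IRX3_S389A libraries, 22445, 22553 and 22476 in IRX3_S361A, 20011, 19230.1 and 18777 in IRX3_WT and 25041, 25615 and 25633 in GFP. The libraries fell into separate ranges, with IRX3_WT lowest, IRX3_S361A and IRX3_S389A in the middle and GFP highest. Its log2 difference was -0.40 (SE 0.030, limma adjusted p = 7.99e-14) for IRX3_WT against GFP, 0.22 (SE 0.030, limma adjusted p = 8.02e-07) for IRX3_S361A against IRX3_WT and 0.25 (SE 0.030, limma adjusted p = 1.2e-07) for IRX3_S389A against IRX3_WT. Its membrane-bound partner Canx ranged from 8753 to 10076 over the 12 libraries and differed less, with a log2 difference of -0.13 (SE 0.036, limma adjusted p = 0.00542) for IRX3_WT against GFP. No difference of Canx from IRX3_WT passed the test for IRX3_S389A (log2 0.081, limma adjusted p = 0.136) or for IRX3_S361A (log2 0.019, limma adjusted p = 0.803).

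Of the ER members of the HSP70 and HSP90 families, Hspa5 (BiP, the central ER chaperone and a regulator of the stress sensors) had 21499, 22166 and 21681 normalized counts in the IRX3_S389A libraries, 21046, 21627 and 21107 in IRX3_S361A, 20634, 20537 and 20080.2 in IRX3_WT and 21433, 21993 and 21198 in GFP. Its IRX3_WT libraries were lowest, but the distance was small, with a log2 difference of -0.077 (SE 0.030, limma adjusted p = 0.037) against GFP. Hsp90b1 (GRP94), whose promoter with its ERSE pair is printed above, had 8921, 9427 and 9598 normalized counts in the IRX3_S389A libraries, 8756, 9219 and 9238 in IRX3_S361A, 8659, 8217 and 8212 in IRX3_WT and 9889, 10013 and 9856 in GFP. The IRX3_WT libraries were below and the GFP libraries above all others, with a log2 difference of -0.25 (SE 0.036, limma adjusted p = 4.51e-07). Hyou1 (GRP170), which exchanges nucleotide on BiP, had 3408, 3471 and 3419 normalized counts in the IRX3_S389A libraries, 3245, 3227 and 3277 in IRX3_S361A, 2846, 2989 and 2826 in IRX3_WT and 3582, 3409 and 3792 in GFP. IRX3_WT was lowest in every library, with a log2 difference of -0.32 (SE 0.042, limma adjusted p = 7.59e-08) against GFP, and IRX3_S389A exceeded IRX3_WT by 0.25 (SE 0.042, limma adjusted p = 3.21e-05) while overlapping GFP. IRX3_S361A exceeded IRX3_WT in Hyou1 with a log2 difference of 0.17 (SE 0.042, limma adjusted p = 0.00329). Other genes share 15.7% of the exon bases of Hsp90b1, and without the strand setting their reads cannot be told apart. For IRX3_WT against GFP, Hspa5 lost its call without IRX3_WT replicate 2 or 3 or GFP replicate 1 or 2 (adjusted p up to 0.16).

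Of the co-chaperones, Dnajb11 (ERdj3), a BiP partner, had 2373, 2509 and 2505 normalized counts in the IRX3_S389A libraries, 2327, 2297 and 2371 in IRX3_S361A, 2288, 2232 and 2112 in IRX3_WT and 2406, 2364 and 2487 in GFP. IRX3_WT was lowest in every library, with IRX3_S389A and GFP overlapping above it. Dnajb11 had a log2 difference of -0.13 (SE 0.044, limma adjusted p = 0.0173) for IRX3_WT against GFP and 0.16 (SE 0.044, limma adjusted p = 0.0123) for IRX3_S389A against IRX3_WT. Sdf2l1, which binds ERdj3, had 1212, 1247 and 1168 normalized counts in the IRX3_S389A libraries, 1154, 1232 and 1217 in IRX3_S361A, 870.3, 969.9 and 918 in IRX3_WT and 1245, 1304 and 1339 in GFP. The IRX3_WT libraries stood well below the other 9, which overlapped or adjoined each other. The log2 difference of Sdf2l1 was -0.50 (SE 0.055, limma adjusted p = 1.17e-09) for IRX3_WT against GFP, 0.39 (SE 0.055, limma adjusted p = 1.46e-06) for IRX3_S361A against IRX3_WT and 0.40 (SE 0.055, limma adjusted p = 1.31e-06) for IRX3_S389A against IRX3_WT, the largest distances of the 14 genes between the substituted constructs and IRX3_WT. Dnajc3 (p58IPK) ranged from 1893 to 2230.1 and was lower with IRX3_WT than with GFP at a log2 difference of -0.13 (SE 0.048, limma adjusted p = 0.0258). Dnajb9 (ERdj4) ranged from 310.5 to 432 and was the 1 chaperone of the list that missed the threshold, with a log2 difference of -0.23 (SE 0.094, limma adjusted p = 0.0517) for IRX3_WT against GFP. Between IRX3_WT and GFP, the Dnajb11 call ended without IRX3_WT replicate 3 or GFP replicate 3 (adjusted p up to 0.109). The Dnajc3 call ended without IRX3_WT replicate 2 or 3 or GFP replicate 1 or 3 (adjusted p up to 0.178). For IRX3_S389A against IRX3_WT, Dnajb11 lost its call without IRX3_S389A replicate 2 or IRX3_WT replicate 3 (adjusted p up to 0.0914).

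Creld2 and Manf encode small ER proteins that rise with ER stress and can be secreted. Creld2 had 568.2, 688.5 and 614.8 normalized counts in the IRX3_S389A libraries, 680.2, 638.1 and 609.1 in IRX3_S361A, 517.8, 568.0 and 506.4 in IRX3_WT and 735.0, 676.8 and 673.2 in GFP. The highest IRX3_WT library was just below the lowest IRX3_S389A library, and IRX3_S389A, IRX3_S361A and GFP overlapped. For Creld2, the log2 difference was -0.39 (SE 0.073, limma adjusted p = 3.6e-05) for IRX3_WT against GFP and 0.28 (SE 0.073, limma adjusted p = 0.00666) for IRX3_S361A against IRX3_WT. Manf had 1421, 1413 and 1379 normalized counts in the IRX3_S389A libraries, 1317, 1414 and 1529 in IRX3_S361A, 1293, 1209 and 1079.8 in IRX3_WT and 1524, 1662 and 1633 in GFP. IRX3_WT was lowest in every library and the substituted constructs overlapped each other. Manf had a log2 difference of -0.43 (SE 0.059, limma adjusted p = 1.71e-07) for IRX3_WT against GFP, 0.24 (SE 0.059, limma adjusted p = 0.00412) for IRX3_S389A against IRX3_WT and 0.25 (SE 0.059, limma adjusted p = 0.00221) for IRX3_S361A against IRX3_WT. Between IRX3_S361A and IRX3_WT, the Creld2 call ended without IRX3_S361A replicate 1 (adjusted p = 0.0517). The Manf call between IRX3_S389A and IRX3_WT ended without IRX3_WT replicate 3 (adjusted p = 0.0661).

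The 8 members with an ERSE match in the promoter included 7 that were lower with IRX3_WT than with GFP, the exception being Syvn1, and their median log2 difference was -0.19. Over all genes tested, 18.6% were lower. The 7 are all among the 14 ER chaperones, of which 13 were lower (median log2 -0.30), so their count repeats that result. Pdia3, Pdia4 and Sdf2l1, whose promoters held no match, were lower too, while Dnajb9, also without a match, was not called. A link between the motif and the difference was not tested. Of the 37 symbols whose promoters held the motif, 5 that are not members were tested, and limma, edgeR and DESeq2 called none of the 5 in any of the 6 comparisons, with 1 at an unadjusted p under 0.05 (between IRX3_S389A and IRX3_WT). The median of those 5 for IRX3_WT against GFP was -0.056. Their log2 differences were -0.39 for Adcy3 (limma adjusted p = 0.127) and -0.37 for Acacb (limma adjusted p = 0.583). They were -0.056 for Alg12, 0.034 for Hnrnpa3 and 0.055 for Pan2. The lack of calls therefore does not show that these genes were unchanged.

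Of the 7 sensors and transcription factors, 1 was higher and 2 were lower with IRX3_WT than with GFP, a share of 42.9% where 39.6% of all genes tested were called. Under equal totals 1 was higher and 5 were lower. Atf6, the sensor that is cut in the Golgi to release a transcription factor, had 1537, 1456 and 1565 normalized counts in the IRX3_S389A libraries, 1527, 1524 and 1508 in IRX3_S361A, 1310.4, 1433 and 1339 in IRX3_WT and 1636, 1516 and 1581 in GFP. Its IRX3_WT libraries were below the other 9, with a log2 difference of -0.21 (SE 0.050, limma adjusted p = 0.000675) against GFP, and IRX3_S389A exceeded IRX3_WT by 0.16 (SE 0.050, limma adjusted p = 0.0253). IRX3_S361A was also called higher than IRX3_WT in Atf6, at 0.16, a call that ended in at least 1 fit with a library left out. Eif2ak3 (PERK) had 155, 159 and 150.4 normalized counts in the IRX3_S389A libraries, 193, 194 and 209 in IRX3_S361A, 209.7, 174 and 166 in IRX3_WT and 268, 232 and 224 in GFP. The GFP libraries were highest and the IRX3_S389A libraries lowest, with IRX3_S361A and IRX3_WT overlapping between them. The log2 difference of Eif2ak3 was -0.63 (SE 0.11, limma adjusted p = 1.89e-05) for IRX3_S389A against GFP, -0.40 (SE 0.11, limma adjusted p = 0.00446) for IRX3_WT against GFP and -0.36 (SE 0.11, limma adjusted p = 0.0356) for IRX3_S389A against IRX3_S361A. Ern1 (IRE1) ranged from 767 to 990.0, and its only call was between IRX3_S389A and GFP, with a log2 difference of -0.17 (SE 0.064, limma adjusted p = 0.0369). Xbp1 ranged from 2899 to 3309 and was called in no comparison, with an adjusted p of 0.511 by limma for IRX3_WT against GFP, and gene-level values do not show the splicing by which IRE1 activates it. For IRX3_S389A against IRX3_WT, Atf6 lost its call without IRX3_S389A replicate 1 or 3 or IRX3_WT replicate 1 or 3 (adjusted p up to 0.119). Between IRX3_S389A and GFP, the Ern1 call ended without IRX3_S389A replicate 1 or 2 or GFP replicate 2 or 3 (adjusted p up to 0.116). The Eif2ak3 call between IRX3_S389A and IRX3_S361A ended without IRX3_S389A replicate 1, 2 or 3 or IRX3_S361A replicate 1, 2 or 3 (adjusted p up to 0.14).

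Atf4 had 2690.0, 2693 and 2501 normalized counts in the IRX3_S389A libraries, 2889, 2959.9 and 3049.8 in IRX3_S361A, 2994, 3171 and 3019.9 in IRX3_WT and 2832, 2966 and 3106 in GFP. All 3 IRX3_S389A libraries were below the other 9, which overlapped. For IRX3_S389A, the log2 difference was -0.22 (SE 0.044, limma adjusted p = 0.000391) against IRX3_WT, -0.18 (SE 0.044, limma adjusted p = 0.0017) against GFP and -0.17 (SE 0.044, limma adjusted p = 0.00654) against IRX3_S361A. Atf5, a relative of ATF4 that is also controlled through translation, had 743, 859 and 742 normalized counts in the IRX3_S389A libraries, 806, 744 and 686 in IRX3_S361A, 933, 1033 and 998 in IRX3_WT and 708, 794 and 757 in GFP. The IRX3_WT libraries were above the other 9, which overlapped. Atf5 had a log2 difference of 0.39 (SE 0.068, limma adjusted p = 1.16e-05) for IRX3_WT against GFP, -0.41 (SE 0.068, limma adjusted p = 2.76e-05) for IRX3_S361A against IRX3_WT and -0.34 (SE 0.068, limma adjusted p = 0.000383) for IRX3_S389A against IRX3_WT. Ddit3 (CHOP), a factor induced by ATF4, ranged from 134 to 259.6 and was lower with IRX3_S361A than with IRX3_WT at a log2 difference of -0.45 (SE 0.12, limma adjusted p = 0.00886) and lower than with GFP at -0.37 (SE 0.12, limma adjusted p = 0.0221). Another row of the table that carries the Ddit3 symbol, for an upstream reading frame, was 0 in every library. For IRX3_S361A against IRX3_WT, Ddit3 lost its call without IRX3_S361A replicate 1 or IRX3_WT replicate 2 (adjusted p up to 0.138). Between IRX3_S361A and GFP, the Ddit3 call ended without IRX3_S361A replicate 1 or GFP replicate 1 or 2 (adjusted p up to 0.242). The Atf4 call between IRX3_S389A and IRX3_S361A ended without IRX3_S389A replicate 3 or IRX3_S361A replicate 3 (adjusted p up to 0.0636).

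The outputs of the integrated stress response did not move together. The GFP libraries stood apart for Ppp1r15a, the IRX3_S389A libraries for Chac1 and the IRX3_WT libraries for Ddit4. Ppp1r15a (GADD34), which directs a phosphatase to eIF2-alpha and so restores translation, had 3402, 3531 and 3277 normalized counts in the IRX3_S389A libraries, 3123, 2811 and 2859 in IRX3_S361A, 3226, 3445 and 3263 in IRX3_WT and 2052, 2166 and 1984 in GFP. Every library with an IRX3 construct was above every GFP library, and IRX3_S361A was below the other IRX3 constructs. Ppp1r15a differed from GFP with a log2 difference of 0.72 (SE 0.046, limma adjusted p = 1.04e-15) for IRX3_S389A, of 0.50 (SE 0.046, limma adjusted p = 3.68e-11) for IRX3_S361A and of 0.68 (SE 0.046, limma adjusted p = 3.63e-15) for IRX3_WT. IRX3_S361A was lower than IRX3_WT with a log2 difference of -0.18 (SE 0.046, limma adjusted p = 0.00583), and IRX3_S389A was higher than IRX3_S361A at 0.22 (SE 0.046, limma adjusted p = 0.00113). For IRX3_S361A against IRX3_WT, Ppp1r15a lost its call without IRX3_S361A replicate 2 (adjusted p = 0.0506). Under equal totals the Ppp1r15a call of IRX3_S361A against IRX3_WT ended, at a log2 difference of -0.11.

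Chac1, an enzyme that degrades glutathione and is a marker of ATF4 activity, had 34.1, 42.3 and 36.6 normalized counts in the IRX3_S389A libraries, 85.0, 58.6 and 84.4 in IRX3_S361A, 75.8, 64.4 and 83.1 in IRX3_WT and 90.0, 77.4 and 64.1 in GFP. The IRX3_S389A libraries were below the other 9, which overlapped, with a log2 difference for IRX3_S389A of -0.96 (SE 0.19, limma adjusted p = 0.000416) against IRX3_WT, -1.01 (SE 0.19, limma adjusted p = 6.14e-05) against GFP and -0.98 (SE 0.19, limma adjusted p = 0.000469) against IRX3_S361A. Trib3, a pseudokinase that restrains ATF4 and CHOP, had 58.9, 64.4 and 46.7 normalized counts in the IRX3_S389A libraries, 61.7, 75.5 and 81.4 in IRX3_S361A, 98.5, 119 and 126 in IRX3_WT and 71.5, 100.4 and 120.2 in GFP. IRX3_S389A and IRX3_S361A overlapped each other and both were below IRX3_WT, while the GFP libraries spread widely and overlapped IRX3_S361A and IRX3_WT. The log2 difference of Trib3 was -1.01 (SE 0.18, limma adjusted p = 0.000103) for IRX3_S389A against IRX3_WT, -0.75 (SE 0.18, limma adjusted p = 0.00121) for IRX3_S389A against GFP and -0.65 (SE 0.18, limma adjusted p = 0.0114) for IRX3_S361A against IRX3_WT. Trib3 was not called for IRX3_WT against GFP (log2 0.26, limma adjusted p = 0.279). Ddit4 (REDD1), which inhibits the growth kinase complex mTORC1, was weakly expressed and had 21.7, 10.1 and 12.2 normalized counts in the IRX3_S389A libraries, 10.1, 22.9 and 18.1 in IRX3_S361A, 37.4, 28.0 and 42.1 in IRX3_WT and 12.1, 16.6 and 16.9 in GFP. Its IRX3_WT libraries were above the other 9, which overlapped. For Ddit4, the log2 difference was 1.18 (SE 0.35, limma adjusted p = 0.00628) for IRX3_WT against GFP, -1.29 (SE 0.35, limma adjusted p = 0.00888) for IRX3_S389A against IRX3_WT and -1.08 (SE 0.35, limma adjusted p = 0.0287) for IRX3_S361A against IRX3_WT. Between IRX3_S361A and IRX3_WT, the Trib3 call ended without IRX3_S361A replicate 1 or IRX3_WT replicate 3 (adjusted p up to 0.0783). The Ddit4 call ended without IRX3_S361A replicate 1 or IRX3_WT replicate 1 or 3 (adjusted p up to 0.201). For IRX3_S389A against IRX3_WT, Ddit4 lost its call without IRX3_S389A replicate 2 or IRX3_WT replicate 3 (adjusted p up to 0.0646).

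**Figure D3:**
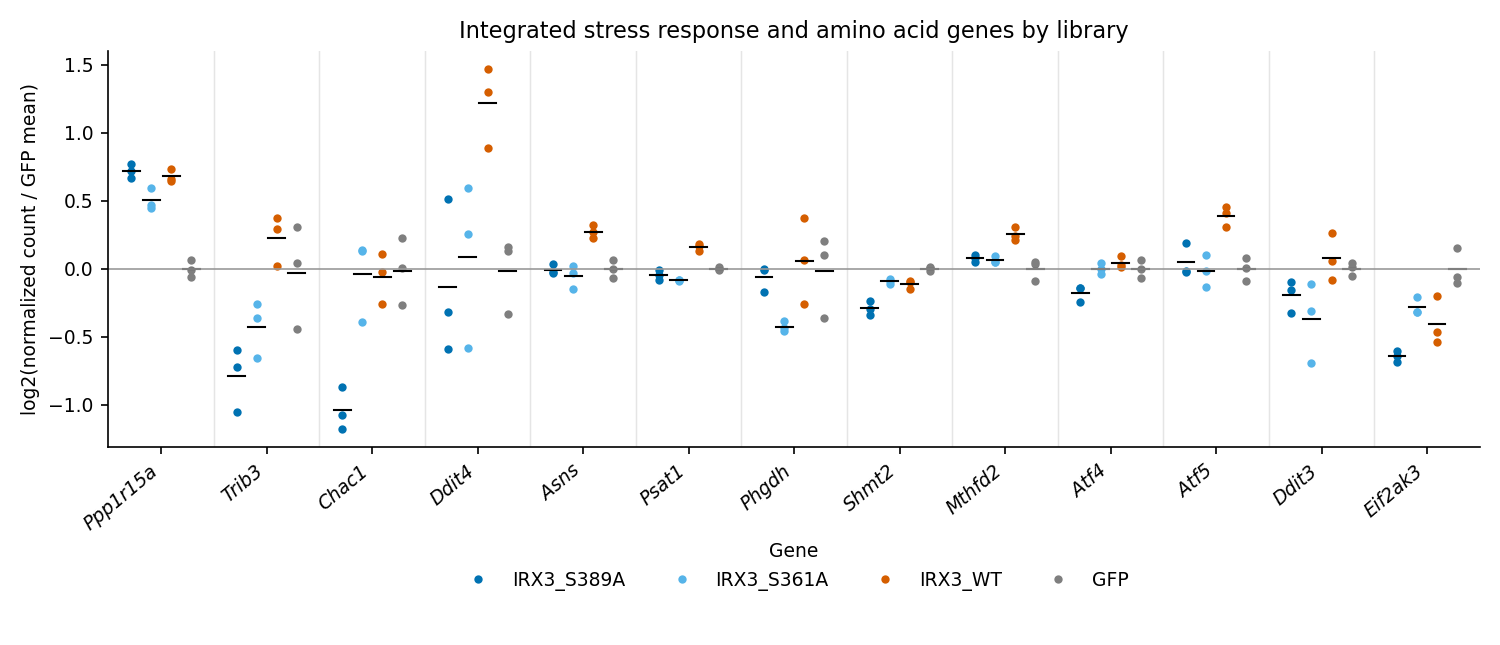
Log2 ratio of the normalized count in each library to the GFP mean (vertical axis) for 4 outputs of the integrated stress response, 5 amino acid and one-carbon enzymes and 4 of the sensors and factors, with IRX3_S389A, IRX3_S361A, IRX3_WT and GFP from left to right for each gene, a point per library and a bar at the group mean. Ppp1r15a is above GFP in all 9 libraries with an IRX3 construct, Chac1 is low in IRX3_S389A alone, and Ddit4 is high in IRX3_WT with a wide spread in IRX3_S389A and IRX3_S361A.

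Of the 5 enzymes of amino acid and one-carbon metabolism, 3 were higher with IRX3_WT than with GFP (0 higher and 1 lower under equal totals). Over all genes tested, 21.0% were higher. In each substituted construct 4 were lower than with IRX3_WT, where 7.08% of all genes were for IRX3_S389A and 9.07% for IRX3_S361A. Asns, Psat1 and Mthfd2 were among the 4 in both, with Shmt2 in IRX3_S389A and Phgdh in IRX3_S361A. Asns (asparagine synthetase), whose promoter CARE is printed above, had 1433, 1423 and 1494 normalized counts in the IRX3_S389A libraries, 1476, 1316 and 1428 in IRX3_S361A, 1820.3, 1756 and 1703 in IRX3_WT and 1527, 1453 and 1393 in GFP. IRX3_WT was above the other 9 libraries, which overlapped. Its log2 difference was 0.27 (SE 0.052, limma adjusted p = 4.35e-05) for IRX3_WT against GFP, -0.32 (SE 0.052, limma adjusted p = 1.26e-05) for IRX3_S361A against IRX3_WT and -0.28 (SE 0.052, limma adjusted p = 0.000132) for IRX3_S389A against IRX3_WT. Psat1, an enzyme of serine synthesis, had 959, 980.4 and 931 normalized counts in the IRX3_S389A libraries, 929, 932 and 934 in IRX3_S361A, 1107, 1079 and 1121 in IRX3_WT and 981, 995 and 988 in GFP. IRX3_WT was again highest in every library, though its log2 difference from GFP of 0.16 (SE 0.053, limma adjusted p = 0.0167) turned to -0.019 under equal totals. Psat1 was lower than with IRX3_WT at a log2 difference of -0.20 (SE 0.053, limma adjusted p = 0.0062) for IRX3_S389A and of -0.24 (SE 0.053, limma adjusted p = 0.00105) for IRX3_S361A. Mthfd2, a mitochondrial one-carbon enzyme, had 2542, 2589 and 2503 normalized counts in the IRX3_S389A libraries, 2500.2, 2571 and 2497 in IRX3_S361A, 2794, 2856 and 2990.4 in IRX3_WT and 2270.0, 2477 and 2495 in GFP. Its IRX3_WT libraries were above and its GFP libraries below all others, with a log2 difference of 0.26 (SE 0.044, limma adjusted p = 1.05e-05). Between IRX3_WT and GFP, the Psat1 call ended without IRX3_WT replicate 3 (adjusted p = 0.0538). Under equal totals calls ended for IRX3_WT against GFP in Asns (0.096) and Mthfd2 (0.079), given as the log2 differences there.

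Shmt2, which makes one-carbon units from serine in mitochondria, had 1336, 1243 and 1281 normalized counts in the IRX3_S389A libraries, 1496, 1454 and 1482 in IRX3_S361A, 1419, 1476 and 1478 in IRX3_WT and 1555, 1593 and 1579 in GFP. The IRX3_S389A libraries were below the other 9 and the GFP libraries above them. Shmt2 was lower with IRX3_S389A with a log2 difference of -0.29 (SE 0.048, limma adjusted p = 5.3e-06) against GFP, of -0.18 (SE 0.048, limma adjusted p = 0.00805) against IRX3_WT and of -0.20 (SE 0.048, limma adjusted p = 0.00428) against IRX3_S361A. Phgdh, which catalyses the first step of serine synthesis, ranged from 183 to 326 and was lower with IRX3_S361A than with IRX3_WT at a log2 difference of -0.48 (SE 0.14, limma adjusted p = 0.0147) and lower than with GFP at -0.40 (SE 0.14, limma adjusted p = 0.0292), where IRX3_WT and GFP varied widely between libraries. The Phgdh call between IRX3_S361A and IRX3_WT ended without IRX3_S361A replicate 1 or 2 or IRX3_WT replicate 1 or 2 (adjusted p up to 0.104). For IRX3_S389A against IRX3_WT, Shmt2 lost its call without IRX3_S389A replicate 2 (adjusted p = 0.0612). Between IRX3_S361A and GFP, the Phgdh call ended without IRX3_S361A replicate 1, 2 or 3 or GFP replicate 1 or 3 (adjusted p up to 0.164).

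The 4 genes of ER-associated degradation act in the removal of misfolded proteins from the ER to the proteasome. With IRX3_WT, 3 of 4 were higher than with GFP, and the same counts held for IRX3_S389A and IRX3_S361A against GFP, but under equal totals these counts became 0 for IRX3_WT, 0 for IRX3_S389A and 1 for IRX3_S361A. Over all genes tested, with the size-factor scaling, 21.0% were higher than GFP for IRX3_WT, 18.8% for IRX3_S389A and 14.9% for IRX3_S361A. Syvn1 (HRD1), the ubiquitin ligase, had 1383, 1442 and 1359.7 normalized counts in the IRX3_S389A libraries, 1457, 1488 and 1416 in IRX3_S361A, 1355, 1266 and 1322 in IRX3_WT and 1187, 1205 and 1273 in GFP. IRX3_S389A and IRX3_S361A overlapped above GFP, with a log2 difference of 0.19 (SE 0.051, limma adjusted p = 0.00272) for IRX3_S389A and 0.25 (SE 0.051, limma adjusted p = 0.000176) for IRX3_S361A. Herpud1, which gathers the ligase complex, had 1162, 1213 and 1244 normalized counts in the IRX3_S389A libraries, 1446, 1472 and 1477 in IRX3_S361A, 1427, 1410.1 and 1356 in IRX3_WT and 1184, 1321 and 1281 in GFP. IRX3_S361A was highest in every library, and IRX3_S389A overlapped GFP below the others. Herpud1 was lower with IRX3_S389A with a log2 difference of -0.28 (SE 0.052, limma adjusted p = 0.000179) against IRX3_S361A and of -0.21 (SE 0.052, limma adjusted p = 0.00332) against IRX3_WT, and higher with IRX3_S361A than with GFP at 0.22 (SE 0.052, limma adjusted p = 0.00128). Edem1, a lectin that picks glycoproteins for degradation, had 4543, 4627 and 4635 normalized counts in the IRX3_S389A libraries, 4447, 4337 and 4202 in IRX3_S361A, 4816, 4637 and 4553 in IRX3_WT and 4055, 4011 and 4139.8 in GFP. All 9 libraries with an IRX3 construct were above GFP, with a log2 difference of 0.20 (SE 0.038, limma adjusted p = 5.32e-05) for IRX3_WT and 0.18 (SE 0.038, limma adjusted p = 0.000267) for IRX3_S389A. Sel1l, the partner of HRD1, ranged from 4046 to 4732 and exceeded GFP with a log2 difference of 0.17 (SE 0.038, limma adjusted p = 0.000507) with IRX3_WT, which turned to -0.011 under equal totals. Under equal totals calls ended for IRX3_WT against GFP in Edem1 (0.021), for IRX3_S361A against GFP in Herpud1 (0.10) and for IRX3_S389A against GFP in Syvn1 (0.022) and Edem1 (0.008), given as the log2 differences there.

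Among the 8 cytosolic heat shock genes, the inducible HSP70 pair was highest with the substituted proteins. Hspa1b had 1006, 1068 and 1018 normalized counts in the IRX3_S389A libraries, 911, 889 and 799 in IRX3_S361A, 762, 781 and 762 in IRX3_WT and 651, 705 and 669 in GFP. The groups stood in the order IRX3_S389A, IRX3_S361A, IRX3_WT and GFP from high to low with no overlap. Even so, Hspa1b was not called between IRX3_S361A and IRX3_WT. It was called higher with IRX3_S389A than with IRX3_S361A, a call that ended in at least 1 fit with a library left out. Hspa1b differed from GFP with a log2 difference of 0.61 (SE 0.061, limma adjusted p = 1.31e-10) for IRX3_S389A, 0.36 (SE 0.061, limma adjusted p = 1.4e-05) for IRX3_S361A and 0.19 (SE 0.061, limma adjusted p = 0.0129) for IRX3_WT, and IRX3_S389A exceeded IRX3_WT by 0.42 (SE 0.061, limma adjusted p = 2.69e-06). Hspa1a had 326, 364 and 324 normalized counts in the IRX3_S389A libraries, 352, 281 and 274 in IRX3_S361A, 225, 231 and 240.1 in IRX3_WT and 226, 241 and 236 in GFP. IRX3_S389A and IRX3_S361A overlapped above IRX3_WT and GFP, which also overlapped. Hspa1a exceeded IRX3_WT with a log2 difference of 0.54 (SE 0.099, limma adjusted p = 0.000112) for IRX3_S389A and of 0.37 (SE 0.099, limma adjusted p = 0.00675) for IRX3_S361A. The transcripts are near copies, with 47.1% of the 100-base stretches of Hspa1a found in Hspa1b, so reads may be divided uncertainly between them, and another gene shares 19.0% of the exon bases of Hspa1a. The Hspa1b call between IRX3_WT and GFP ended without GFP replicate 1 (adjusted p = 0.0646). For IRX3_S361A against IRX3_WT, Hspa1a lost its call without IRX3_S361A replicate 1 (adjusted p = 0.11). Under equal totals the Hspa1b call of IRX3_WT against GFP ended, at a log2 difference of 0.011.

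Hsph1 (HSP110), which exchanges nucleotide on HSP70, had 594, 616 and 609 normalized counts in the IRX3_S389A libraries, 614, 610.3 and 586 in IRX3_S361A, 527, 544 and 490.4 in IRX3_WT and 716, 649 and 714 in GFP. IRX3_WT was lowest and GFP highest, with the substituted constructs overlapping between them. Hsph1 had a log2 difference of -0.41 (SE 0.067, limma adjusted p = 3.83e-06) for IRX3_WT against GFP and 0.22 (SE 0.067, limma adjusted p = 0.0205) for IRX3_S389A against IRX3_WT. IRX3_S361A was also called higher than IRX3_WT in Hsph1, a call that ended in at least 1 fit with a library left out. Hsp90aa1, the inducible cytosolic HSP90, had 9515, 9373 and 9827 normalized counts in the IRX3_S389A libraries, 9357, 9768 and 9756 in IRX3_S361A, 10749, 10666 and 10550.4 in IRX3_WT and 9629.5, 9755 and 9722 in GFP. IRX3_WT was above the other 9 libraries, with a log2 difference of 0.14 (SE 0.033, limma adjusted p = 0.00115) against GFP, which turned to -0.042 under equal totals. Both substituted constructs were lower than IRX3_WT in Hsp90aa1, with a log2 difference of -0.15 (SE 0.033, limma adjusted p = 0.000895) for IRX3_S389A and -0.15 (SE 0.033, limma adjusted p = 0.0015) for IRX3_S361A. Hsp90ab1, the constitutive HSP90, ranged from 28312 to 31595 and exceeded GFP with a log2 difference of 0.10 (SE 0.030, limma adjusted p = 0.00686) with IRX3_WT, which turned to -0.077 under equal totals and was then called lower (limma adjusted p = 0.0211). Dnaja1, an HSP40 co-chaperone, ranged from 3223 to 3828 and exceeded GFP with a log2 difference of 0.18 (SE 0.040, limma adjusted p = 0.000301) with IRX3_WT. Hsf1 (438 to 617) and the HSP40 gene Dnajb1 (618 to 740.0) were called in no comparison, at limma adjusted p of 0.282 and 0.57 for IRX3_WT against GFP. Between IRX3_WT and GFP, the Hsp90ab1 call ended without IRX3_WT replicate 1 (adjusted p = 0.0517). The Hsph1 call between IRX3_S389A and IRX3_WT ended without IRX3_S389A replicate 2 or IRX3_WT replicate 3 (adjusted p up to 0.117). Under equal totals calls ended for IRX3_WT against GFP in Dnaja1 (0.006) and for IRX3_S361A against IRX3_WT in Hsp90aa1 (-0.083), given as the log2 differences there.

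The mitochondrial chaperonin is built from HSP60 (Hspd1) and HSP10 (Hspe1), whose genes lie head to head on chromosome 1. Hspe1 had 849, 864 and 979.7 normalized counts in the IRX3_S389A libraries, 879.6, 854 and 835 in IRX3_S361A, 815, 773 and 767 in IRX3_WT and 874, 964 and 961 in GFP. IRX3_WT was lowest in every library, with a log2 difference of -0.25 (SE 0.062, limma adjusted p = 0.00133) against GFP, and IRX3_S389A overlapped GFP and exceeded IRX3_WT by 0.19 (SE 0.062, limma adjusted p = 0.031). Hspd1 had 3955, 3977 and 4054 normalized counts in the IRX3_S389A libraries, 3995, 4051 and 4058 in IRX3_S361A, 4367, 4170.2 and 4108 in IRX3_WT and 4239, 4474 and 4290.3 in GFP. GFP was above IRX3_S389A and IRX3_S361A in every library, with a log2 difference of -0.12 (SE 0.039, limma adjusted p = 0.0159) for IRX3_S389A against GFP and -0.10 (SE 0.039, limma adjusted p = 0.0448) for IRX3_S361A against GFP, and IRX3_WT overlapped GFP. The partners had different orders of constructs, with IRX3_WT lowest for Hspe1 and the substituted constructs lowest for Hspd1. For IRX3_S389A against IRX3_WT, Hspe1 lost its call without IRX3_S389A replicate 3 or IRX3_WT replicate 2 or 3 (adjusted p up to 0.219). Between IRX3_S361A and GFP, the Hspd1 call ended without IRX3_S361A replicate 1, 2 or 3 or GFP replicate 2 or 3 (adjusted p up to 0.205). The Hspd1 call between IRX3_S389A and GFP ended without IRX3_S389A replicate 1 or 2 or GFP replicate 2 (adjusted p up to 0.099).

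**Figure D4:**
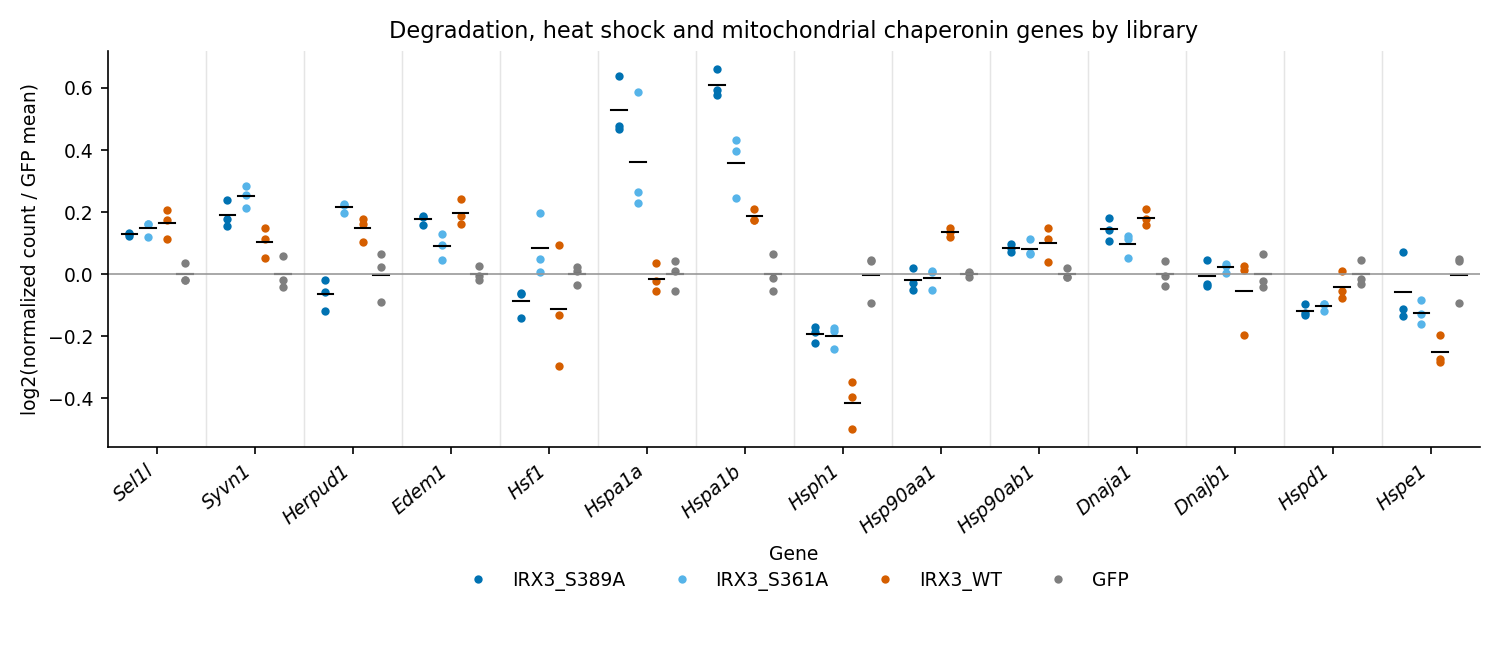
Log2 ratio of the normalized count in each library to the GFP mean (vertical axis) for the 4 degradation genes, the 8 cytosolic heat shock genes and the 2 chaperonin genes, with IRX3_S389A, IRX3_S361A, IRX3_WT and GFP from left to right for each gene, a point per library and a bar at the group mean. Hspa1b descends from IRX3_S389A to GFP, Hsph1 and Hspe1 are lowest in IRX3_WT, and Herpud1 is highest in IRX3_S361A.

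Counted by libraries alone, all 3 IRX3_WT libraries were below the other 9 in 14 of 44 members, where 4.52% of all genes tested had that order, and above them in 6 members (Asns, Psat1, Mthfd2, Atf5, Ddit4 and Hsp90aa1), where 6.02% did. All 3 IRX3_S389A libraries were below the other 9 in Atf4, Chac1, Eif2ak3 and Shmt2 (background 2.12%) and above them in Hspa1b (background 4.20%). For IRX3_S361A, 1 member was below the rest (Phgdh, background 0.748%) and 1 above (Herpud1, background 1.13%). GFP was below the rest in 7 members (background 13.4%) and above in 8 (background 11.4%). These orders use the size-factor scaling, and those that involve GFP depend on it. Under equal totals the log2 difference of IRX3_WT against GFP turned to -0.019 for Psat1 and -0.042 for Hsp90aa1. Within groups the members varied little, with a median coefficient of variation of 3.23% in IRX3_S389A, 2.57% in IRX3_S361A, 3.51% in IRX3_WT and 3.54% in GFP, and Ddit4 and Trib3 were among the most variable.

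Summed over genes, the 14 ER chaperones held 90585 to 92577 normalized counts in IRX3_S389A, 88210 to 89763 in IRX3_S361A, 79653 to 83249 in IRX3_WT and 95958 to 97681 in GFP, with no overlap between groups. The 5 amino acid enzymes summed to 6433 to 6518 in IRX3_S389A, 6460 to 6584 in IRX3_S361A, 7403 to 7502 in IRX3_WT and 6602 to 6744 in GFP. With the size-factor scaling, the chaperone sum was thus lowest and the enzyme sum highest in IRX3_WT. The place of the enzyme sum depends on that scaling. Under equal totals 0 of the 5 enzymes were called higher with IRX3_WT than with GFP, and 1 was called lower. All 44 members together made up 0.890 ± 0.00499% of the normalized counts in IRX3_S389A, 0.910 ± 0.00351% in IRX3_S361A, 0.848 ± 0.0107% in IRX3_WT and 1.01 ± 0.00571% in GFP (SD, n = 3 each).

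**Figure D5:**
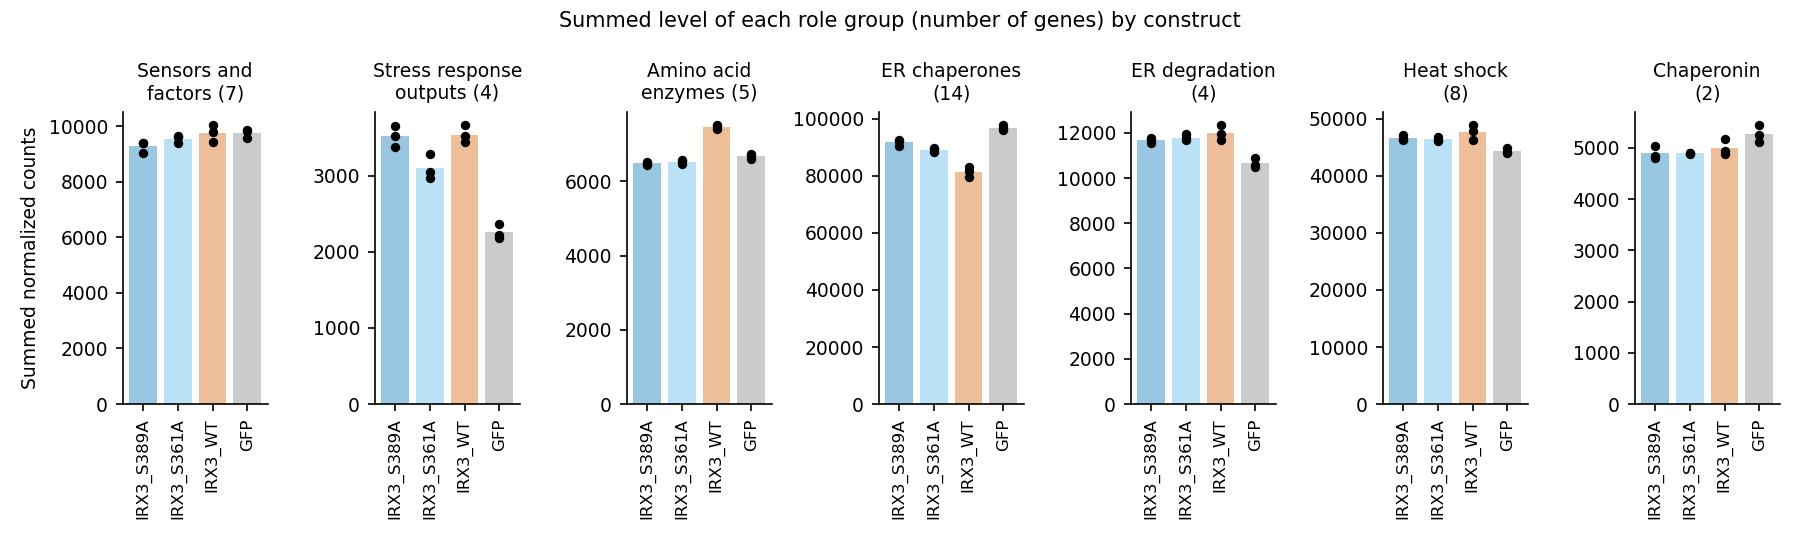
Summed normalized counts (vertical axes, from 0) of the members of each role, with the number of genes in brackets, for IRX3_S389A, IRX3_S361A, IRX3_WT and GFP from left to right, with bars at the mean and a point per library. The ER chaperone bars are lowest in IRX3_WT, where the libraries sum to 79653 to 83249, and highest in GFP, at 95958 to 97681.

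Genes of the same pathways outside the 44 were counted in the same way. Their values, here and in the next paragraph, use the size-factor scaling, and those under equal totals are not given. There the median log2 difference of all genes moved from -0.006 to -0.18 for IRX3_WT against GFP. Small positive differences from GFP and the counts of genes higher than GFP therefore depend on the scaling. Between IRX3_WT and GFP, where 39.6% of all genes tested were called, the share called was 47.8% for other ER folding genes, 40.7% for translocation, 47.6% for other degradation genes and 68.8% for the integrated stress response. It was 27.3% for amino acid synthesis and tRNA charging, 30% for cytosolic chaperones and 27.3% for mitochondrial chaperones and proteases. Of 23 other ER folding and glycoprotein quality control genes, 4 were higher and 7 lower with IRX3_WT than with GFP (median log2 -0.043). In this list 3 were higher and 2 lower than with IRX3_WT in each substituted construct (21.7% called, where 15.3% of all genes were for IRX3_S389A and 15.5% for IRX3_S361A). Erp29, an ER folding factor, averaged 2138 ± 30.6 in IRX3_S389A, 2263 ± 111 in IRX3_S361A, 1915 ± 193 in IRX3_WT and 2529 ± 102 in GFP normalized counts (SD, n = 3 each) and was lowest with IRX3_WT, with a log2 difference of -0.41 (SE 0.054, limma adjusted p = 1.22e-07) for IRX3_WT against GFP, although other genes share 26.4% of its exon bases. Ero1l, the oxidase that feeds the disulfide isomerases, averaged 2282 ± 123 in IRX3_S389A, 2057 ± 83.0 in IRX3_S361A, 2585 ± 122 in IRX3_WT and 1926 ± 37.6 in GFP and was highest with IRX3_WT, with a log2 difference of 0.42 (SE 0.048, limma adjusted p = 2.21e-09). Dnajc1, an ER co-chaperone, was also higher, with a log2 difference of 0.44 (SE 0.059, limma adjusted p = 1.08e-07). Of 27 genes of ER translocation and secretory entry, 5 were higher and 6 lower with IRX3_WT than with GFP, and 6 were higher with IRX3_S389A than with IRX3_WT, where 8.21% of all genes were. Sec11c, a signal peptidase subunit, averaged 798 ± 31.7 in IRX3_S389A, 751 ± 51.4 in IRX3_S361A, 638 ± 34.9 in IRX3_WT and 801 ± 21.5 in GFP, with a log2 difference of -0.33 (SE 0.064, limma adjusted p = 6.83e-05) for IRX3_WT against GFP and 0.32 (SE 0.064, limma adjusted p = 0.000359) for IRX3_S389A against IRX3_WT. Tram1, a translocon partner, was lower with IRX3_WT than with GFP at a log2 difference of -0.28 (SE 0.048, limma adjusted p = 8.08e-06), and Sec23b, a coat protein of ER export, was higher at 0.17 (SE 0.048, limma adjusted p = 0.00387). Of 21 other degradation genes, 8 were higher and 2 lower with IRX3_WT than with GFP. The ubiquitin enzyme Ube2j1 was higher at a log2 difference of 0.22 (SE 0.046, limma adjusted p = 0.000141), as was the ligase Rnf139 at 0.46 (SE 0.064, limma adjusted p = 1.71e-07), although other genes share 26.2% of the exon bases of Rnf139. Edem2, a relative of Edem1, was highest with IRX3_S389A, with a log2 difference of 0.33 (SE 0.061, limma adjusted p = 3.03e-05) against GFP.

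Of 16 other genes of the integrated stress response, 9 were higher and 2 lower with IRX3_WT than with GFP (median log2 0.21). Atf3, a stress factor downstream of ATF4 that LPS also induces, averaged 7078 ± 206 in IRX3_S389A, 5412 ± 357 in IRX3_S361A, 5739 ± 235 in IRX3_WT and 4629.6 ± 38.3 in GFP, and IRX3_S389A exceeded IRX3_WT with a log2 difference of 0.30 (SE 0.041, limma adjusted p = 1.1e-06). Ppp1r15b, the constitutive relative of Ppp1r15a, averaged 5599 ± 208 in IRX3_S389A, 5087 ± 109 in IRX3_S361A, 5697 ± 109.7 in IRX3_WT and 4168 ± 36.3 in GFP and also had GFP lowest and IRX3_S361A next, with a log2 difference of 0.45 (SE 0.038, limma adjusted p = 1.06e-12) for IRX3_WT against GFP and -0.16 (SE 0.038, limma adjusted p = 0.00171) for IRX3_S361A against IRX3_WT. Eif2ak2 (PKR), the eIF2-alpha kinase that senses double-stranded RNA, averaged 7210.2 ± 251 in IRX3_S389A, 6086 ± 177 in IRX3_S361A, 6210.4 ± 340.2 in IRX3_WT and 4877 ± 148 in GFP and was highest with IRX3_S389A, with a log2 difference of 0.22 (SE 0.040, limma adjusted p = 0.000139) against IRX3_WT. Of 22 other genes of amino acid synthesis and tRNA charging, 2 were higher and 4 lower with IRX3_WT than with GFP, and Got1 (aspartate aminotransferase) was lower at a log2 difference of -0.54 (SE 0.069, limma adjusted p = 3.97e-08). Mars (methionyl-tRNA synthetase) was lower with IRX3_S389A than with GFP at a log2 difference of -0.26 (SE 0.056, limma adjusted p = 0.000362). Among 30 other cytosolic chaperones, 7 were higher and 2 lower with IRX3_WT than with GFP. Dnajb6, an HSP40 that prevents aggregation, averaged 3129 ± 90.9 in IRX3_S389A, 2957 ± 116 in IRX3_S361A, 3701 ± 197 in IRX3_WT and 2544 ± 74.6 in GFP and was higher with IRX3_WT than with GFP at a log2 difference of 0.54 (SE 0.044, limma adjusted p = 6.91e-13), and lower with IRX3_S389A than with IRX3_WT at -0.24 (SE 0.044, limma adjusted p = 0.00012). The HSP40 gene Dnaja2 and the HSP70-HSP90 adaptor Stip1 were also higher with IRX3_WT than with GFP, with a log2 difference of 0.38 (SE 0.041, limma adjusted p = 4.47e-10) for Dnaja2 and 0.37 (SE 0.038, limma adjusted p = 2.89e-10) for Stip1. Of 11 other mitochondrial chaperones and proteases, 1 was higher and 2 lower with IRX3_WT than with GFP. Yme1l1, a protease of the inner membrane, averaged 3138 ± 45.0 in IRX3_S389A, 3060.1 ± 162 in IRX3_S361A, 3526 ± 177 in IRX3_WT and 2679 ± 19.8 in GFP and was higher at a log2 difference of 0.40 (SE 0.044, limma adjusted p = 1.44e-09). Grpel2, a nucleotide exchange factor, averaged 213 ± 22.4 in IRX3_S389A, 229 ± 22.7 in IRX3_S361A, 203 ± 16.3 in IRX3_WT and 291 ± 19.3 in GFP and was lower with IRX3_WT than with GFP at a log2 difference of -0.52 (SE 0.11, limma adjusted p = 0.000146). Htra2, a protease between the membranes, was lower at a log2 difference of -0.31 (SE 0.062, limma adjusted p = 9.89e-05), although other genes share 43.7% of its exon bases.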

How the data were processed

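RNA was sequenced from 12 libraries in 4 groups of 3, taken from the construct named in the labels. The authors deposited 1 table of gene signal values, described as raw counts, but the values are read counts divided by 1 size factor per library. Every value in the 12 libraries was a whole multiple of 1 step (100% of values, tolerance 1e-06), and 1 read was worth 0.890 to 1.14 units, which gives 17149058 to 20108002 recovered reads per library. Recovery is claimed for 9 libraries, since the step was within 1% of 1 in the other 3. Per the submitters' processing notes the build was mm10 and the tools included StringTie 1.3.5, HISAT2 2.1.0 and Trimmomatic. Information on the read counter, strand setting, annotation release and origin of the scaling is not given in the sources used here. A median-of-ratios size factor is the median ratio of a library's recovered reads to their geometric mean over all libraries. Multiplied by that factor, the step was 1.0 to 1.0001 in the 12 libraries, so the values of the scaling match this method. Gene coordinates and exon overlaps were read from GENCODE M21, which matched 98.1% of the deposited IDs with version and 99.5% without.

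As the table did not hold whole counts, the main test was limma 3.58.1 (R 4.3.3, trend and robust) on log2(value + 1), so fold changes of low genes are understated. It was run on the 13369 genes with 3 or more libraries of 10 or more normalized counts, with all 12 libraries in 1 fit (8 residual degrees of freedom) and Benjamini-Hochberg adjustment over all genes tested. A gene is called at an adjusted p under 0.05. The fits were tested on simulated data. As alternatives, edgeR 4.0.16 and DESeq2 1.42.0 were run on the recovered reads. Limma called 5288 genes for IRX3_WT against GFP, edgeR 5321 and DESeq2 4912. Scaling, pseudocount, filter, samples in the fit, replicate block and each library in turn were also varied, and edgeR on the 9 libraries was added after the data were seen. The members and lists were chosen with earlier results of these data known. Values in every library are given for the members of each role with the smallest joint p, up to 3 for a role of 4 or more and up to 2 for a smaller one, for members called in opposite directions in a pair of comparisons, and for further members chosen after their values were seen. Of each other list, up to 3 genes with the smallest joint p are named, except 1 gene that is not reported here, and 1 listed symbol was not matched. Intervals and floors cover counting error only.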

Additional observations from a re-analysis of the deposited data

How the results depend on the processing

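Counts of members called moved by less than 1.5 times under most settings. With equal library totals the members called became 30 for IRX3_S361A against GFP and 36 for IRX3_S389A against GFP. Over all genes tested, 4273 and 6731 were called there. In addition, 9 log2 differences of members changed sign. For IRX3_WT against GFP these were Psat1 (-0.019), Sel1l (-0.011), Herpud1 (-0.028), Hsp90aa1 (-0.042) and Hsp90ab1 (-0.077). For IRX3_S361A against GFP it was Hsp90ab1 (-0.032), and for IRX3_S389A against GFP they were Sel1l (-0.041), Hsp90ab1 (-0.086) and Dnaja1 (-0.025). The reversed Hsp90ab1 values of IRX3_WT and IRX3_S389A against GFP were called lower (limma adjusted p = 0.0211 and 0.0104), and the other 7 were not called. In edgeR on the 9 libraries with a clear step, chosen after seeing the data, 14 members were called for IRX3_S361A against IRX3_WT, 11 for IRX3_S361A against GFP and 1 for IRX3_S389A against IRX3_S361A. That fit has fewer libraries, leaving 1 for IRX3_S361A, whose spread is assumed to be that of the other groups, and over all genes it called 1373, 2254 and 428 in those comparisons, against 2071, 3457 and 1359 in limma on 12 libraries.

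With 1 library left out, the members called were 26 to 29 for IRX3_WT against GFP, 14 to 21 for IRX3_S361A against IRX3_WT (14 without IRX3_S361A replicate 1), 19 to 27 for IRX3_S389A against IRX3_WT, 12 to 15 for IRX3_S361A against GFP (12 without GFP replicate 3), 15 to 20 for IRX3_S389A against GFP, 4 to 6 for IRX3_S389A against IRX3_S361A (4 without IRX3_S361A replicate 3) and 35 to 39 in the joint test. Over 128 calls of single members, 2042 recomputed values included 1812 that kept direction and call, 221 that kept direction and lost the call and the 9 that changed sign, and the cause was not tested. Members called under every setting run numbered 17 of 30 for IRX3_WT against GFP, 8 of 24 for IRX3_S361A against IRX3_WT, 18 of 27 for IRX3_S389A against IRX3_WT, 7 of 19 for IRX3_S361A against GFP, 10 of 21 for IRX3_S389A against GFP and 1 of 7 for IRX3_S389A against IRX3_S361A. With the replicate number as a block, 30, 22, 27, 17, 20 and 7 members were called in the same order of comparisons, and 37 in the joint test. Between libraries sharing a number, deviations from the group means correlated at -0.041 to 0.030, and 4 of 12 libraries correlated best with their own number. These values cannot tell whether libraries with the same number shared a mouse, culture or batch.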
